A study of Homo sapiens with 8 samples.

Results

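Gene expression was compared between untreated spheroids (3D control) and untreated monolayers (2D control) of A549, an established line of human lung adenocarcinoma cells. The comparison takes the 2 arrays titled as 3D controls and the 2 titled as 2D controls, which are 4 of the 8 Affymetrix U133 plus 2.0 arrays of the series, and every difference is 3D minus 2D. Spheroids were formed by hanging drop over 48 h and then kept on plates coated to stop them from attaching, whereas monolayers stayed attached to plastic. According to the methods both cultures were moved to medium with little serum and given vehicle in 2 rounds of 48 h each, while the remaining 4 arrays hold the same cultures given 10 ng/ml of TNF together with 2 ng/ml of TGFβ. All groups are the same unmodified cell line, and no stromal, endothelial or immune cells were added. The methods describe the arrays of a group as technical duplicates and the deposited design describes them as biological replicates, so the p-values measure only the spread between these arrays, which may be technical. Fewer cells of a given state and less RNA of a gene in each cell cannot be told apart in such bulk RNA.

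In a monolayer every cell faces the medium and a stiff surface. In a spheroid most cells touch only each other, and oxygen, nutrients and wastes have to diffuse through the cell mass. When oxygen is short, the hypoxia-inducible factors HIF-1 and HIF-2 escape destruction by prolyl hydroxylases and switch on genes of glucose uptake, glycolysis, angiogenesis and collagen processing. Loss of attachment to a stiff surface is known to move the co-activators YAP and TAZ out of the nucleus, and shortage of amino acids or sterols is sensed through the transcription factors ATF4 and SREBP.

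Values are log2 expression values made by the authors with GCRMA, so that a difference of 1 is a 2-fold difference. They lie between 2.23 and 16.24, array medians lie between 2.43 and 2.50, and a group whose arrays are both below their medians is called near background. Arrays of one culture resembled each other more than arrays of different cultures. Across all probe sets, Pearson's r was 0.9968 between the 2D control arrays, 0.9978 between the 3D control arrays and 0.9834 to 0.9875 between arrays of different cultures. The signal of GAPDH at its 3′ end minus that at its 5′ end, a measure of RNA integrity, lay between −0.12 and −0.03 on all 8 arrays. For ACTB it was 1.36 and 1.46 in 2D control and 1.27 and 0.98 in 3D control. The part of this ACTB gap in the comparison was not tested.

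Spheroids and monolayers differed in both directions, and the largest differences were rises. Of 19775 genes, each represented by the probe set with the highest mean over the 8 arrays, 2110 were called at an adjusted p under 0.05 (limma with Benjamini-Hochberg adjustment over all 54613 probe sets). Of these, 1141 were higher in spheroids (5.77% of the genes tested) and 969 were lower (4.90%). Among the 12825 genes above background in at least 1 of the untreated cultures, 1133 were called higher (8.83%) and 963 lower (7.51%). Shares given for the gene lists below are of members with a probe set and are to be read beside these. The median difference of these 12825 genes was 0. A difference of 2-fold or more was reached by 475 of the genes called higher and by 394 of those called lower, and 10-fold or more by 29 and 5. The number of calls depended on the arrays: it fell to between 1022 and 1383 when any 1 array was left out and to 254 when the spread was taken from the 4 untreated arrays alone, and 382 of the 2110 genes (259 higher and 123 lower) stayed called without each of the 8 arrays.

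**Figure D1:**
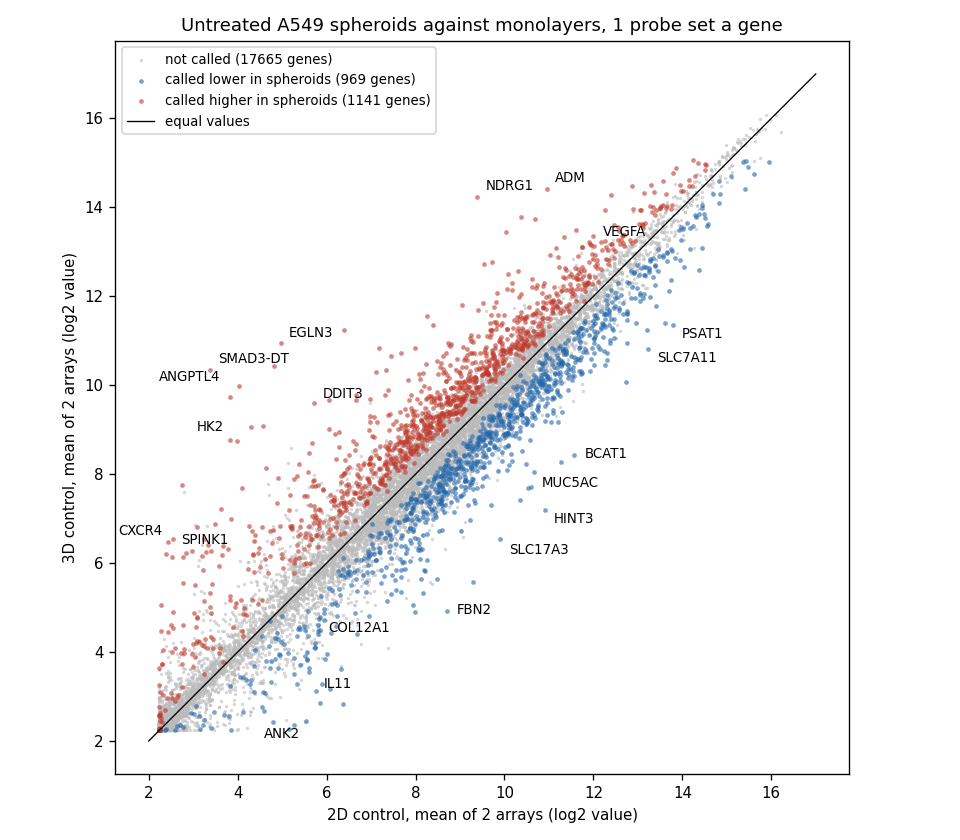
Each point is 1 gene, with the mean log2 value of the 2 arrays of 2D control on the horizontal axis and that of 3D control on the vertical axis, and the line marks equal values. Genes called higher in spheroids (red, 1141) and lower (blue, 969) lie on both sides over the whole range of brightness, and the points farthest from the line are rises such as SMAD3-DT, EGLN3 and ANGPTL4.

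The genes with the largest rises were led by SMAD3-DT, a non-coding RNA transcribed divergently from the TGFβ mediator SMAD3, followed by EGLN3, ANGPTL4 and CLEC2B. SMAD3-DT measured 3.37 and 3.39 on the 2D control arrays and 10.33 and 10.35 on the 3D control arrays, which is 124-fold higher (log2 difference 6.96, SE 0.11, adjusted p = 0.000459). ANGPTL4, a secreted inhibitor of lipoprotein lipase, measured 4.19 and 3.84 in 2D against 9.98 and 9.97 in 3D, 62.1-fold higher (adjusted p = 0.00628). CLEC2B, a C-type lectin of the cell surface, measured 3.77 and 3.90 against 9.72 and 9.76, 59.8-fold higher (adjusted p = 0.008). The arrays of each culture lay close together for these genes and far from those of the other culture. The histone gene H4C8, whose family members are alike in sequence, rose 29.1-fold and the mitochondrial arginase gene ARG2 27.2-fold. The matricellular protein gene CCN5 measured 2.64 and 2.84 in 2D, close to the array medians, and 7.82 and 7.71 in 3D (32.6-fold). CXCR4, the receptor of the chemokine CXCL12, measured 2.39 and 2.48 in 2D, close to the array medians, and 6.24 and 6.70 in 3D (16.5-fold, adjusted p = 0.00534). SPINK1, a secreted trypsin inhibitor, measured 2.54 and 2.56 against 6.79 and 6.29 (16.0-fold, adjusted p = 0.00815). CDCA2, a partner of protein phosphatase 1 in mitosis, measured 4.03 and 5.59 in 2D and 10.47 and 10.41 in 3D, and its 49.3-fold rise became 28.7-fold without 2D control replicate 1 and 84.6-fold without 2D control replicate 2.

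The largest falls were smaller than the largest rises and were led by FBN2, HINT3, LINC00173 and CNTNAP3. FBN2, a fibrillin of the elastic microfibrils, measured 8.49 and 8.91 in 2D and 4.98 and 4.86 in 3D, 13.7-fold lower (log2 difference −3.78, SE 0.45, adjusted p = 0.0241). HINT3, a nucleotide hydrolase, measured 10.91 and 10.92 against 7.53 and 6.85, 13.2-fold lower (adjusted p = 0.0136). SLC17A3, a transporter of phosphate and urate, measured 9.64 and 10.17 against 6.31 and 6.75, 10.4-fold lower (adjusted p = 0.0332). The cultures were well apart for all 3 genes, and the other bright probe sets of FBN2 (1) and HINT3 (2) pointed the same way. LINC00173 fell 13.0-fold, CNTNAP3 11.6-fold and its near copy CNTNAP3P2 7.91-fold, although related copies can share signal and the 3D values of CNTNAP3P2 were identical on both arrays, so that its size is not exact. The cytoskeletal adaptor ANK2 fell 8.50-fold, to 2.51 and 2.38 in 3D, close to the array medians. The sialyltransferase ST6GAL2 fell 7.67-fold, the cyclic AMP phosphodiesterase PDE8B 7.48-fold and the poly(A)-binding protein PABPC1L 7.45-fold. THUMPD3-AS1 and the potassium channel KCNQ5 were near background in spheroids, where they were at least 7.12-fold and at least 6.60-fold lower. Of the 30 genes with the largest rises and falls, 13 stayed called without each of the 8 arrays, among them SMAD3-DT, ANGPTL4, CLEC2B, H4C8, CXCR4, SPINK1 and HINT3, whereas leaving out a single array ended between 5 and 16 of the 30 calls (adjusted p up to 0.172).

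Targets of the hypoxia-inducible factors rose together. Of 23 listed targets with a probe set, 18 were higher in spheroids and none was lower by limma (0 at an unadjusted p under 0.05). Among all genes 5.77% were higher, and among those above background 8.83%. The median difference of the targets was 2.00 where that of all genes above background was 0. EGLN3, a prolyl hydroxylase that marks HIF for destruction and is itself a HIF target, measured 5.39 and 4.53 on the 2D control arrays and 10.80 and 11.07 on the 3D control arrays, 62.9-fold higher (SE 0.66 on the log2 scale, adjusted p = 0.0212). NDRG1, a stress-induced gene used widely as a marker of hypoxia, measured 9.41 and 9.36 against 14.19 and 14.28, 28.8-fold higher (SE 0.24, adjusted p = 0.00628). ADM, the vasodilator peptide adrenomedullin, measured 11.15 and 10.76 against 14.39 and 14.46, 11.1-fold higher (SE 0.20, adjusted p = 0.00763). For each of these genes both spheroid arrays were far above both monolayer arrays. ANKRD37 measured 4.57 on both 2D arrays and 9.08 on both 3D arrays (22.9-fold, adjusted p = 0.00885), and because the 2D values were identical its size is not exact. ERO1A, which oxidizes disulphide bonds in the endoplasmic reticulum, measured 9.73 and 9.72 against 12.77 on each 3D array, 8.26-fold higher (SE 0.08, adjusted p = 0.0014). P4HA1, a hydroxylase of collagen prolines, rose 9.06-fold and BNIP3L, a receptor for removal of mitochondria, 3.69-fold. VEGFA, the angiogenic growth factor, was already bright in monolayers at 11.87 and 12.16 and measured 13.12 and 13.14 in spheroids, 2.16-fold higher (adjusted p = 0.0165). The 5 targets that were not called were CA12, EGLN1, STC2, VLDLR and WSB1, with differences between −0.33 and 0.02. The calls of NDRG1, ANKRD37, ADM, ERO1A, P4HA1 and BNIP3L held without each array. Leaving out a single array ended at most 2 of the 8 calls named (EGLN3 or VEGFA, adjusted p up to 0.084) and left between 10 and 15 of the targets called higher, with 10 without 3D control replicate 2. With the spread taken from the 4 untreated arrays alone, 6 were called higher, and the same setting left 1 amino acid gene, 2 NRF2 targets and 1 YAP target called lower and 1 cell cycle inhibitor called higher among the lists described further on.

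Most genes of glycolysis rose as well. Of 20 genes of glucose uptake, glycolysis and lactate handling, 15 were higher in spheroids (75.0%) and 1 was lower (5.0%). Their median difference was 1.0. Isoforms that were dim in monolayers rose most. HK2, the inducible hexokinase that traps glucose in the cell, measured 3.54 and 4.12 in 2D and 8.70 and 8.85 in 3D, 30.9-fold higher (log2 difference 4.95, SE 0.23, adjusted p = 0.00532). ALDOC, an aldolase best known from brain, measured 4.22 and 3.74 against 8.83 and 8.64, 27.0-fold higher (adjusted p = 0.0296). The glucose transporter gene SLC2A3 measured 4.62 and 4.64 against 7.75 and 8.53, 11.4-fold higher (adjusted p = 0.019). In all 3 the cultures were separated by more than 3 units on the log2 scale while arrays of a culture differed by less than 1. ENO2, the neuronal enolase, rose 8.09-fold, the ubiquitous glucose transporter SLC2A1 3.34-fold, the isomerase GPI 3.08-fold and PFKFB3, which makes the activator of phosphofructokinase, 2.57-fold. PGK1, a kinase that makes ATP in glycolysis, measured 14.31 and 14.15 against 15.10 and 15.02, 1.78-fold higher (adjusted p = 0.0121), and all 5 of its other bright probe sets were higher as well. LDHA, the main lactate dehydrogenase, measured 15.12 on each 2D array and 15.26 and 15.30 in 3D and was not called (difference 0.16, adjusted p = 0.377). LDHB, which favours the reverse reaction, was 1.17-fold lower (adjusted p = 0.0347). HK2, GPI, PFKFB3 and PGK1 stayed called without each array, and leaving out a single array ended between 1 and 5 of the 9 calls named (adjusted p up to 0.122) and left between 7 and 12 of the list called higher, with 7 without either 2D control replicate 2 or 3D control replicate 2. On the spread of the 4 untreated arrays alone none of the list was called by limma, while 16 genes were higher and 1 lower at an unadjusted p under 0.05 over all 8 arrays.

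**Figure D2:**
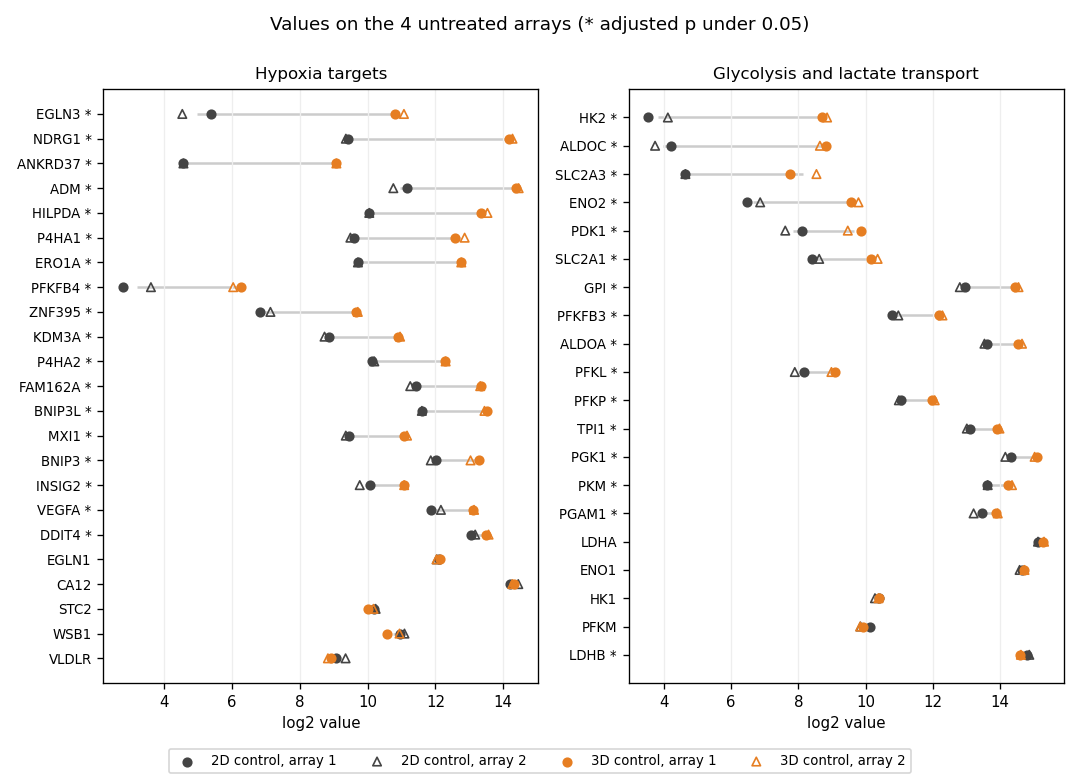
Rows are genes of the hypoxia list (left) and of the glycolysis list (right), ordered by difference, and the horizontal axis is the log2 value. Grey symbols are the 2 arrays of 2D control and orange symbols the 2 arrays of 3D control, a line joins the means of the cultures and an asterisk marks a gene called at an adjusted p under 0.05. Orange symbols lie to the right for 18 hypoxia targets and 15 glycolysis genes marked with an asterisk, while LDHA and EGLN1 lie on top of each other or nearly so.

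The core of the element to which HIF binds is ACGTG, and ACGTGC was searched on both strands in the 300 bases from 250 before to 50 after the transcription start of each gene (RefSeq, GRCh38.p14). It was found in 6.87% of 27305 promoters, in 6 of 18 promoters of hypoxia targets and in 5 of 19 of glycolysis genes. Of the 6 hypoxia targets 5 were called higher and 1, EGLN1, was not called. Of the 5 glycolysis genes 4 were called higher and 1, LDHA, was not called. The share was 10.9% among genes called higher and 9.24% among genes called lower. A match is a stretch of letters and not a shown binding site. Windows around the match are printed for 6 of the genes that rose, because they place the letters beside the values above. They are read 5′ to 3′ along the gene, with the match in capitals, either as ACGTGC or as its reverse complement GCACGT. The windows are chr4:185396658-185396743 (plus strand) for ANKRD37, chr14:52695628-52695713 (minus strand) for ERO1A, chr2:74834038-74834123 (plus strand) for HK2, chr17:28577091-28577145 (minus strand) for ALDOC, chr12:6914422-6914507 (plus strand) for ENO2 and chrX:78104235-78104297 (plus strand) for PGK1. The match begins 143 bases before the start of ANKRD37, which holds a second match nearby, 115 before that of ERO1A, 49 before that of HK2, 241 before that of ALDOC and 118 before that of ENO2. In PGK1 it lies 27 bases after the start, and a second match, 184 bases before the start, lies outside the printed window.
ANKRD37: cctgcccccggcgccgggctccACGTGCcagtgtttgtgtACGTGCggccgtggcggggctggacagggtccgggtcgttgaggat
ERO1A: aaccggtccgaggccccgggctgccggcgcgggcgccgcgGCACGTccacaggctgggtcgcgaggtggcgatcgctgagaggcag
HK2: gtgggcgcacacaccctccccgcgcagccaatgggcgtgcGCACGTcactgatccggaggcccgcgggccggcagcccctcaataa
ALDOC: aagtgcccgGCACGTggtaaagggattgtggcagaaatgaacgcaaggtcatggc
ENO2: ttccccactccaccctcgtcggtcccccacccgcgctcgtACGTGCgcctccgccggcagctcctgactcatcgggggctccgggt
PGK1: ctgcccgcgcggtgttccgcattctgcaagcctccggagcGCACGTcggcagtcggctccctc

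Mitochondrial genes moved little beside glycolysis. Of 17 genes of the tricarboxylic acid cycle and pyruvate dehydrogenase, 1 was higher (5.88%) and 2 were lower (11.8%), with a median difference of −0.20. Of 28 respiratory chain genes 3 were higher and 3 lower (10.7% each), with a median of 0.03. Among all genes above background 8.83% were higher and 7.51% lower. OGDH, a subunit of 2-oxoglutarate dehydrogenase, measured 8.58 and 8.59 in 2D and 7.75 and 7.25 in 3D, 2.12-fold lower (adjusted p = 0.0445). DLAT, a subunit of pyruvate dehydrogenase, was 1.40-fold lower, and IDH2, the mitochondrial isocitrate dehydrogenase that yields NADPH, 1.63-fold higher. Within complex I the subunits went both ways. NDUFS1 measured 10.999 and 10.89 against 10.33 and 10.31, 1.54-fold lower (adjusted p = 0.0119), and NDUFB5 measured 11.56 and 11.40 against 12.10 and 12.15, 1.56-fold higher (adjusted p = 0.0168). Citrate synthase, CS, measured 11.30 and 11.40 against 11.02 and 11.23 and was not called. PDK4, a kinase that inhibits pyruvate dehydrogenase, measured 14.37 and 14.14 against 13.18 and 12.99 and was not called either (difference −1.17, adjusted p = 0.0994), although 1 of its 2 other bright probe sets was called lower. Of 27 genes of peroxisomes and fatty acid oxidation, 1 was lower, the peroxisomal enzyme HSD17B4 (1.52-fold, adjusted p = 0.00664), and CPT1A, the gate of mitochondrial fat oxidation, had a difference of −0.93 (adjusted p = 0.0664). NDUFS1 and HSD17B4 stayed called without each array, and leaving out a single array ended 3 of the 6 calls named (adjusted p up to 0.18).

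Genes of serine synthesis and amino acid supply were lower in spheroids, although 2 stress factors of the same list were higher. Of 24 genes of the amino acid response, which ATF4 drives, 9 were lower (37.5%) and 3 higher (12.5%), with a median difference of −0.77. PSAT1, an aminotransferase of serine synthesis, measured 13.81 and 13.77 on the 2D control arrays and 11.36 and 11.34 on the 3D control arrays, 5.42-fold lower (log2 difference −2.44, SE 0.12, adjusted p = 0.0059). PHGDH, which takes the first step of that pathway, measured 9.91 and 9.48 against 7.16 and 7.45, 5.23-fold lower (SE 0.19, adjusted p = 0.0122). ASNS, asparagine synthetase, measured 13.50 and 12.93 against 11.13 and 11.36, 3.91-fold lower (SE 0.25, adjusted p = 0.0268). Each was lower on both spheroid arrays than on either monolayer array. The transporter of large neutral amino acids SLC7A5 fell 3.48-fold. Outside the list, the cystine importer SLC7A11, listed here among NRF2 targets and the largest fall of those, fell 5.37-fold. BCAT1, which transfers nitrogen from branched-chain amino acids and is on neither list, fell 8.84-fold. In the other direction DDIT3, the stress factor CHOP, measured 5.72 on both 2D arrays and 9.45 and 9.75 on the 3D arrays, 14.7-fold higher (SE 0.29, adjusted p = 0.0116), with a size that is not exact because the 2D values were identical. ATF3, a stress-induced repressor, measured 4.99 and 5.66 against 7.89 and 8.02, 6.18-fold higher (adjusted p = 0.0322), and the third member that rose was VEGFA. Chaperones of the unfolded protein response gave few calls: of 16 genes 1 was higher (DNAJB9, 1.74-fold) and 2 lower (among them HYOU1, 1.65-fold), and HSPA5, the main chaperone of the endoplasmic reticulum, measured 14.72 and 14.55 against 14.85 and 14.89 and was not called. PSAT1, PHGDH, BCAT1 and DDIT3 stayed called without each array, and leaving out a single array ended between 4 and 6 of the 10 calls named (adjusted p up to 0.151) and left between 3 and 6 of the amino acid response list called lower.

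The letters TGATGNAA, part of the element bound by ATF4 with its partners, were found on either strand in 3.67% of 27305 promoters and in 5 of 20 promoters of the amino acid response list. Of these 5, 1 gene was called higher, 2 were called lower and 2 were not called. The windows of ASNS (chr7:97872429-97872516, minus strand, match 68 bases before the start) and ATF3 (chr1:212565176-212565263, plus strand, match 191 bases before the start) are printed because the genes share the letters and moved in opposite directions.
ASNS: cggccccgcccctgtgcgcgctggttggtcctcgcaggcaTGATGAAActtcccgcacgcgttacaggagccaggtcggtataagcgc
ATF3: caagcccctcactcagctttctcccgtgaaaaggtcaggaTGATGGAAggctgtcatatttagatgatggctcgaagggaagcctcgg

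Genes of lipid synthesis lay lower in spheroids as a group, with few calls. All 14 genes of fatty acid synthesis had negative differences, with a median of −0.80, and 3 of them were called lower (21.4%). ACACA, acetyl-CoA carboxylase, measured 10.46 and 10.50 in 2D and 8.39 and 8.08 in 3D, 4.76-fold lower (adjusted p = 0.0121), although its other bright probe set had a difference of opposite sign. SREBF1, the transcription factor that drives this pathway, measured 8.22 and 8.45 against 7.23 and 7.49, 1.96-fold lower (adjusted p = 0.0353), and the elongase ELOVL6 was 2.47-fold lower. FASN, fatty acid synthase, measured 8.70 and 9.35 against 7.10 and 6.40 and narrowly missed the threshold (difference −2.27, adjusted p = 0.0574). Arrays of a culture disagreed over this list. Replicate 1 was above replicate 2 for 13 of the 14 genes in 3D control, by a median of 0.22, and for 4 in 2D control. Of 18 genes of sterol synthesis and uptake 4 were lower (22.2%) and 1 higher (5.56%), with a median of −0.79. SQLE, squalene epoxidase, measured 12.13 and 12.32 against 10.83 and 10.72, 2.74-fold lower (adjusted p = 0.0264). The other sterol genes called lower were LSS (2.64-fold), the cholesterol carrier STARD4 (2.17-fold) and NSDHL (1.78-fold), while PMVK, phosphomevalonate kinase, was 1.85-fold higher. Replicate 1 was above replicate 2 for 17 of the 18 sterol genes in 3D control, by a median of 0.22, and for 2 in 2D control. The part of these gaps in the lipid differences was not tested. ACACA stayed called without each array, and leaving out a single array ended between 5 and 7 of the 8 calls named (adjusted p up to 0.18), which left 1 or 2 fatty acid genes and at most 1 sterol gene called lower.

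Targets of NRF2, the regulator of antioxidant defence whose inhibitor KEAP1 is mutated in A549, were lower or not called. Of 25 targets 10 were lower and none higher by limma (16 and 0 at an unadjusted p under 0.05), with a median difference of −0.39. Among all genes 4.90% were lower, and among those above background 7.51%. The bile salt and drug exporter ABCC2 measured 10.91 and 11.26 in 2D and 9.40 and 9.35 in 3D, 3.27-fold lower (adjusted p = 0.0282), and the related ABCC3 was 2.19-fold lower. The malic enzyme ME1, which yields NADPH, measured 12.19 and 12.49 against 11.38 and 11.31, 1.99-fold lower (adjusted p = 0.0324). The aldo-keto reductase AKR1B10, among the brightest genes of the arrays, measured 15.46 and 15.47 against 14.91 and 14.89, 1.48-fold lower (adjusted p = 0.0097). NQO1 and HMOX1, both classic targets, were not called, with differences of −0.33 and 0.11, although both other bright probe sets of NQO1 were called lower. Among 23 genes of xenobiotic and aldehyde metabolism 5 were lower, among them ALDH1A1 (1.81-fold), the vitamin D hydroxylase CYP24A1 (2.58-fold), CYP2S1 (1.92-fold) and EPHX1 (1.86-fold), and 2 were higher, GSTA1 (2.79-fold) and CYP1A1 (2.27-fold, with identical 2D values, so that the size is not exact). Both genes that rose were dim, at 2.52 and 2.51 in 2D for GSTA1 and 3.00 on both 2D arrays for CYP1A1. AKR1B10 stayed called without each array, and leaving out a single array ended between 5 and 8 of the 10 calls named (adjusted p up to 0.13) and left between 1 and 6 NRF2 targets called lower.

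**Figure D3:**
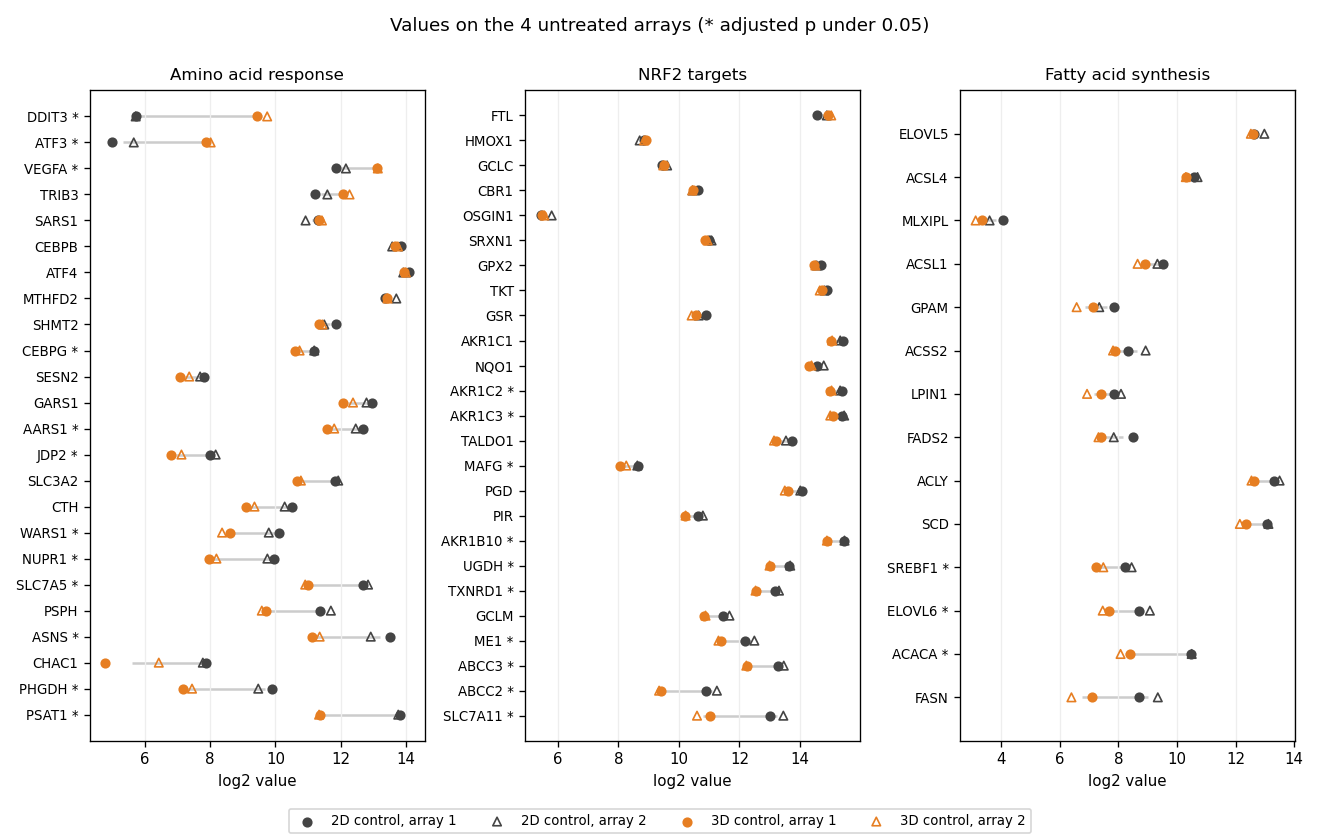
Rows are genes of the amino acid response (left), NRF2 targets (middle) and fatty acid synthesis (right), ordered by difference, with the log2 value on the horizontal axis. Grey symbols are the 2 arrays of 2D control, orange symbols the 2 arrays of 3D control, and an asterisk marks a gene called at an adjusted p under 0.05. In the left panel DDIT3 and ATF3 at the top lie opposite to PSAT1 and PHGDH at the bottom, and in the middle panel all 10 genes with an asterisk are lower in spheroids.

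Proliferation genes gave no common direction, whereas every call among inhibitors of the cell cycle was a rise. Of 37 mitotic genes 1 was lower and none higher by limma (1 and 6 at an unadjusted p under 0.05), with a median difference of 0.08 over the members above background. That gene was ECT2, an exchange factor needed to divide the cell body, which measured 11.45 and 11.71 in 2D and 10.57 and 10.45 in 3D (2.10-fold, adjusted p = 0.0162). CCNB1, cyclin B1, measured 6.15 and 6.48 against 6.80 and 6.72 and was not called. The monolayer arrays disagreed over the 31 mitotic genes above background. Replicate 1 was above replicate 2 for 6 of them in 2D control and for 1 in 2D treated. The medians of replicate 1 minus replicate 2 were −0.25 and −0.57. The part of this gap in the mitotic calls was not tested. Of 39 genes of DNA replication 5 were higher (12.8%) and 2 lower (5.13%), with a median of 0.04. TK1, thymidine kinase, measured 3.70 and 3.85 against 6.37 and 6.26, 5.83-fold higher (adjusted p = 0.00637), and its other bright probe set was also higher but was not called. RFC4 (2.08-fold), TYMS (2.00-fold) and FEN1 (1.86-fold) were higher, and the polymerase subunit POLA1 (1.65-fold) and cyclin D3, CCND3 (1.61-fold), were lower. Of 16 cell cycle inhibitors and quiescence genes 6 were higher (4 or 5 with any single array left out) and none lower by limma (8 and 2 at an unadjusted p under 0.05). The share called higher, 37.5%, compares with 5.77% of all genes tested and 8.83% of those above background. Of the 14 members above background, 8 had positive differences and 6 negative ones. CDKN1A, the inhibitor p21, measured 9.79 and 9.88 against 11.26 and 11.47, 2.88-fold higher (adjusted p = 0.00823). CCNG2, an atypical cyclin of arrested cells, measured 9.69 and 9.68 against 11.41 and 11.40, 3.30-fold higher (adjusted p = 0.00304). ERRFI1, an inhibitor of the EGF receptor, rose 3.85-fold (adjusted p = 0.00637) and the antiproliferative gene BTG1 1.99-fold, while CDKN1B, p27, measured 13.56 and 13.36 against 13.21 and 13.19 and was not called. TK1, CDKN1A, CCNG2 and ERRFI1 stayed called without each array, and leaving out a single array ended between 2 and 6 of the 11 calls named (adjusted p up to 0.186).

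Ribosome biogenesis was lower in part and p53 targets were higher in part. Of 24 genes of ribosome biogenesis, together with MYC, 7 were lower and none higher by limma (11 and 1 at an unadjusted p under 0.05), with a median difference of −0.38. NOP2, a methyltransferase of ribosomal RNA, measured 9.49 and 9.60 in 2D and 8.19 and 8.32 in 3D, 2.44-fold lower (adjusted p = 0.0101). POLR1A, the largest subunit of RNA polymerase I, was 2.68-fold lower, RRS1 2.02-fold, NOP58 1.61-fold and nucleolin, NCL, 1.55-fold. MYC itself measured 10.75 and 11.08 against 9.80 and 9.86 and was not called (difference −1.08, adjusted p = 0.0964). Of 21 p53 targets 7 were higher (33.3%) and 2 lower (9.52%), with a median of 0.31. The damage recognition factor DDB2 measured 7.28 and 7.56 against 9.35 and 9.37, 3.83-fold higher (adjusted p = 0.0228), the nuclease AEN was 2.29-fold higher and GADD45A, a growth arrest gene, 1.89-fold higher. MDM2, which degrades p53, was not called (difference −0.19), the pro-apoptotic BAX was 1.51-fold lower, and PLK3 was 4.36-fold lower on a probe set whose partner had the opposite sign. NOP2 and GADD45A stayed called without each array, and leaving out a single array ended between 4 and 8 of the 10 calls named (adjusted p up to 0.159), which left between 1 and 4 genes of ribosome biogenesis called lower and between 1 and 6 p53 targets called higher.

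Targets of YAP and its partner TEAD were mostly lower where called. Of 19 targets 6 were lower (31.6%) and 1 higher (5.26%). Their median difference was −0.92, the lowest median among the lists drawn in the plot of gene lists. FJX1, a secreted regulator of tissue growth, measured 7.50 and 7.62 on the 2D control arrays and 5.91 and 5.79 on the 3D control arrays, 3.27-fold lower (adjusted p = 0.00816). AMOTL2, a junction protein that binds YAP, measured 7.69 and 7.81 against 6.40 and 6.36, 2.59-fold lower (adjusted p = 0.00628). The pathway's upstream members WWC1 and PTPN14 were 2.78-fold and 2.27-fold lower. CCN2, a classic target, measured 7.56 and 7.98 against 5.07 and 5.33 and was not called (difference −2.57, adjusted p = 0.078), and CCN1 measured 5.73 and 5.71 against 3.47 and 5.13 and was not called either. ANKRD1 was near background on all 4 arrays. Of 29 genes of the actin cytoskeleton and focal adhesions 3 were higher (10.3%) and 2 lower (6.9%). The LIM-domain protein FHL2 measured 10.44 and 10.30 against 11.98 and 12.14, 3.23-fold higher (adjusted p = 0.00639), ACTA2, smooth muscle actin, was 1.72-fold higher and caveolin 1, CAV1, 1.59-fold higher. ACTN1, an actin crosslinker, was 1.57-fold lower, and TLN1, talin, was 1.83-fold lower on a probe set whose partner had the opposite sign. Of 17 integrin genes only ITGB1, the common beta chain, was called, and it was 1.33-fold lower (14.62 and 14.78 against 14.30 and 14.28). FJX1, AMOTL2 and FHL2 stayed called without each array, and leaving out a single array ended between 5 and 7 of the 10 calls named (adjusted p up to 0.182), which left 4 or 5 targets of YAP called lower.

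Matrix genes were more often lower than higher in spheroids where called. Of 26 laminin and glycoprotein genes 6 were lower (23.1%) and 1 higher (3.85%), with a median of −0.24. Of 22 collagen genes 3 were lower (13.6%) and none higher by limma (9 and 0 at an unadjusted p under 0.05). The median of the collagens was −0.83. FBN2, described above, was the largest of these falls. VCAN, the proteoglycan versican, measured 12.61 and 12.86 in 2D and 10.37 and 9.79 in 3D, 6.29-fold lower (adjusted p = 0.0213), and its 4 other bright probe sets were all called lower. COL12A1, a collagen of fibril surfaces, measured 7.94 and 8.01 against 5.07 and 4.73, 8.45-fold lower (adjusted p = 0.0149), although 1 of its 2 other bright probe sets had the opposite sign. Of the basement membrane collagens COL4A5 was 3.32-fold lower (adjusted p = 0.0436) and COL4A1, at 8.79 and 8.70 against 7.38 and 7.14, was not called (adjusted p = 0.0676), although its other bright probe set was called lower. Perlecan, HSPG2, was 3.51-fold lower and the transmembrane collagen COL13A1 3.11-fold lower. Among laminin chains LAMB1 (2.93-fold), LAMA5 (2.50-fold) and LAMC1 (2.08-fold) were lower, whereas LAMB3, a chain of laminin-332, measured 9.81 and 9.53 against 11.28 and 11.21, 2.98-fold higher (adjusted p = 0.0208). Fibronectin, FN1, was bright in both cultures and was not called (difference −0.03). Of 25 matrix proteases and inhibitors PLAU, urokinase, was 2.71-fold lower, TIMP2 2.15-fold lower and MMP1, the interstitial collagenase, 5.14-fold higher from near the floor of the scale (2.56 and 2.52 against 4.89 and 4.91). The matricellular gene CCN5, described above, also rose. None of the 13 calls named held without each array, and leaving out a single array ended between 4 and 12 of them (adjusted p up to 0.165), and the genes called lower then numbered between 0 and 5 in the laminin and glycoprotein list and between 0 and 4 among collagens.

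Epithelial genes gave calls in both directions. Of 30 junction and polarity genes 4 were higher (13.3%) and 2 lower (6.67%), where 5.77% and 4.90% of all genes tested were. Among all genes above background the shares were 8.83% and 7.51%. E-cadherin, CDH1, measured 12.94 and 12.95 in 2D and 12.83 and 12.69 in 3D and was not called. ELF3, an epithelial transcription factor, measured 10.59 and 10.86 against 12.22 and 12.28, 2.88-fold higher (adjusted p = 0.0227). The desmosomal genes PKP2 and PPL were 2.35-fold and 2.78-fold higher, whereas plakoglobin, JUP, was 1.66-fold lower and the tight junction gene CLDN1 2.20-fold lower. Among 14 keratins KRT19 measured 8.18 and 8.52 against 9.66 and 9.87 (2.68-fold higher, adjusted p = 0.0216), KRT15 was 2.28-fold higher, KRT18 1.32-fold lower and KRT80 1.48-fold lower. Of 17 transcription factors of epithelial-mesenchymal transition (EMT) and mesenchymal markers 3 were higher (17.6%) and 1 lower (5.88%). LOX, a collagen crosslinking oxidase that is also a HIF target, measured 5.77 and 5.39 against 8.12 and 7.98, 5.56-fold higher (adjusted p = 0.0182). SNAI2, the EMT factor SLUG, measured 2.46 and 2.53 against 4.39 and 4.82, 4.32-fold higher at low signal (adjusted p = 0.0472). Vimentin, VIM, measured 13.73 and 13.84 against 14.71 and 14.83, 1.98-fold higher (adjusted p = 0.0119), although its other bright probe set had the opposite sign. N-cadherin, CDH2, measured 6.69 and 6.58 against 6.07 and 5.93 and was not called, and the membrane-cytoskeleton linker MSN was 1.74-fold lower. VIM stayed called without each array, and leaving out a single array ended between 5 and 11 of the 13 calls named (adjusted p up to 0.177).

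Secretory genes of airway type went both ways. Of 30 alveolar and airway secretory genes 3 were higher and 3 lower (10.0% each), with a median difference of 0.03 over the members above background. Of all genes tested 5.77% were higher and 4.90% lower, and of those above background 8.83% and 7.51%. The gel-forming mucins fell: MUC5AC measured 11.18 and 11.38 on the 2D control arrays and 8.54 and 8.00 on the 3D control arrays, 8.01-fold lower (log2 difference −3.002, SE 0.22, adjusted p = 0.0105), and MUC5B measured 10.87 and 10.32 against 7.95 and 7.48, 7.37-fold lower (adjusted p = 0.0339). The transmembrane mucin MUC1 measured 7.02 and 7.24 against 9.20 and 9.16, 4.14-fold higher (adjusted p = 0.0219), while MUC13 was 1.45-fold lower. AGR3, a protein disulphide isomerase of ciliated and secretory cells, measured 3.40 and 2.28 against 6.34 and 6.09, 10.4-fold higher (adjusted p = 0.0231). The surfactant gene SFTPB, a marker of alveolar type II cells, lay between 4.12 and 4.21 on all 4 arrays. Of 20 endodermal and lung transcription factors SOX9 alone was called, 2.14-fold lower. Of 31 genes of plasma proteins, which A549 cells are known to make in part, 4 were higher (12.9%) and 1 lower (3.23%). FGA, the fibrinogen alpha chain, measured 6.78 and 6.49 against 8.40 and 8.70, 3.77-fold higher (adjusted p = 0.0127), haptoglobin, HP, was 3.07-fold higher and ceruloplasmin, CP, 2.26-fold higher. AHSG, fetuin-A, measured 6.27 and 5.09 against 8.71 on each 3D array, and its 8.17-fold rise became 12.3-fold without 2D control replicate 1 and 5.42-fold without 2D control replicate 2. The 2D control arrays disagreed over this list, since replicate 1 was above replicate 2 for 20 of 24 members above background, by a median of 0.37, and the part of this gap in the calls was not tested. MUC5AC, MUC13 and FGA stayed called without each array, and leaving out a single array ended between 5 and 7 of the 10 calls named (adjusted p up to 0.154).

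The Wnt and Notch list held the largest share of falls among the growth pathways. Of 29 genes of TGFβ and BMP signalling 6 were lower (20.7%) and 3 higher (10.3%), where 4.90% and 5.77% of all genes tested and 7.51% and 8.83% of those above background were. PMEPA1, a TGFβ target that restrains the pathway, measured 12.14 and 12.39 in 2D and 10.58 and 10.34 in 3D, 3.50-fold lower (adjusted p = 0.0232). LTBP1, which stores latent TGFβ in the matrix, was 2.80-fold lower and the inhibin subunit INHBB 2.64-fold lower. ID3, a target of BMP, measured 8.76 and 8.81 against 10.50 and 10.41, 3.19-fold higher (adjusted p = 0.0168), and TGFB1 itself was 1.61-fold higher. Of 26 genes of the Wnt and Notch pathways 8 were lower (30.8%) and none higher by limma (11 and 1 at an unadjusted p under 0.05), with a median difference of −0.52. DKK1, a secreted Wnt inhibitor, measured 11.16 and 11.42 against 9.25 and 9.53, 3.74-fold lower (adjusted p = 0.0439). The Notch ligand JAG1 was 3.31-fold lower, the Notch target HES1 2.00-fold, the Wnt inhibitor SFRP1 2.57-fold and ZNRF3, which removes Wnt receptors, 2.37-fold, while AXIN2, a widely used Wnt target, was not called (difference 0.24). Of 26 genes of receptor tyrosine kinases, their ligands and feedback 3 were lower: EPHA2 (3.38-fold), the EGF-family ligand EREG (2.75-fold) and IRS2 (1.80-fold). That share, 11.5%, compares with 7.51% of all genes above background. None of the 13 calls named held without each array, and leaving out a single array ended between 5 and 13 of them, with all 13 lost when 2D control replicate 2 was left out, at an adjusted p of up to 0.171. With a single array left out, between 1 and 4 genes of the Wnt and Notch list were called lower.

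Inflammatory genes were lower where called, apart from CXCL10 near the floor of the scale, and immediate early genes were more often higher. Of 25 targets of NF-κB and cytokines 5 were lower (20.0%) and 1 higher (4.0%), with a median difference of −0.48. IL11, a cytokine of the IL-6 family, measured 5.57 and 5.95 in 2D and 3.11 on both 3D arrays, 6.25-fold lower (adjusted p = 0.0188), with a size that is not exact because the 3D values were identical. TNFAIP2 was 2.02-fold lower, CXCL2 1.98-fold, the inducible cyclooxygenase PTGS2 1.63-fold and CXCL5 1.46-fold. The bright chemokine CXCL8 measured 14.06 and 13.97 against 13.52 and 13.22 and was not called (adjusted p = 0.0658). CXCL10 measured 2.24 on both 2D arrays and 2.65 and 2.48 in 3D, at least 1.08-fold higher. None of 30 interferon-stimulated genes was called by limma, and 1 was lower and none higher at an unadjusted p under 0.05. Of 25 immediate early genes 5 were higher (20.0%) and 2 lower (8.0%). FOS measured 8.45 and 8.78 against 10.20 and 10.52, 3.36-fold higher (adjusted p = 0.0486), MAFF was 3.01-fold higher, KLF4 2.45-fold, JUN 2.36-fold and JUNB 2.00-fold. EGR1, often induced together with FOS, measured 6.15 and 5.38 against 5.89 and 5.87 and was not called, while DUSP4 and IER2 were 1.74-fold and 1.30-fold lower. None of the 13 calls named held without each array, and leaving out a single array ended between 9 and 12 of them (adjusted p up to 0.184), which left at most 2 NF-κB targets called lower and 1 or 2 immediate early genes called higher.

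Genes of lysosomes and autophagy were more often higher than lower. Of 25 genes 6 were higher (24.0%) and 1 was lower, with a median difference of 0.24. Among all genes 5.77% were higher, and among those above background, as all 25 were, 8.83%. NEU1, a sialidase of lysosomes, measured 8.16 and 8.11 against 9.22 and 9.19, 2.10-fold higher (adjusted p = 0.025). The membrane protein LAMP2 was 2.06-fold higher, the cholesterol carrier NPC2 1.80-fold and GABARAPL1, which tags autophagosomes, 1.66-fold, whereas LAMP1 was 1.51-fold lower. Leaving out a single array ended between 3 and 5 of these 5 calls (adjusted p up to 0.155) and left at most 3 genes of the list called higher.

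**Figure D4:**
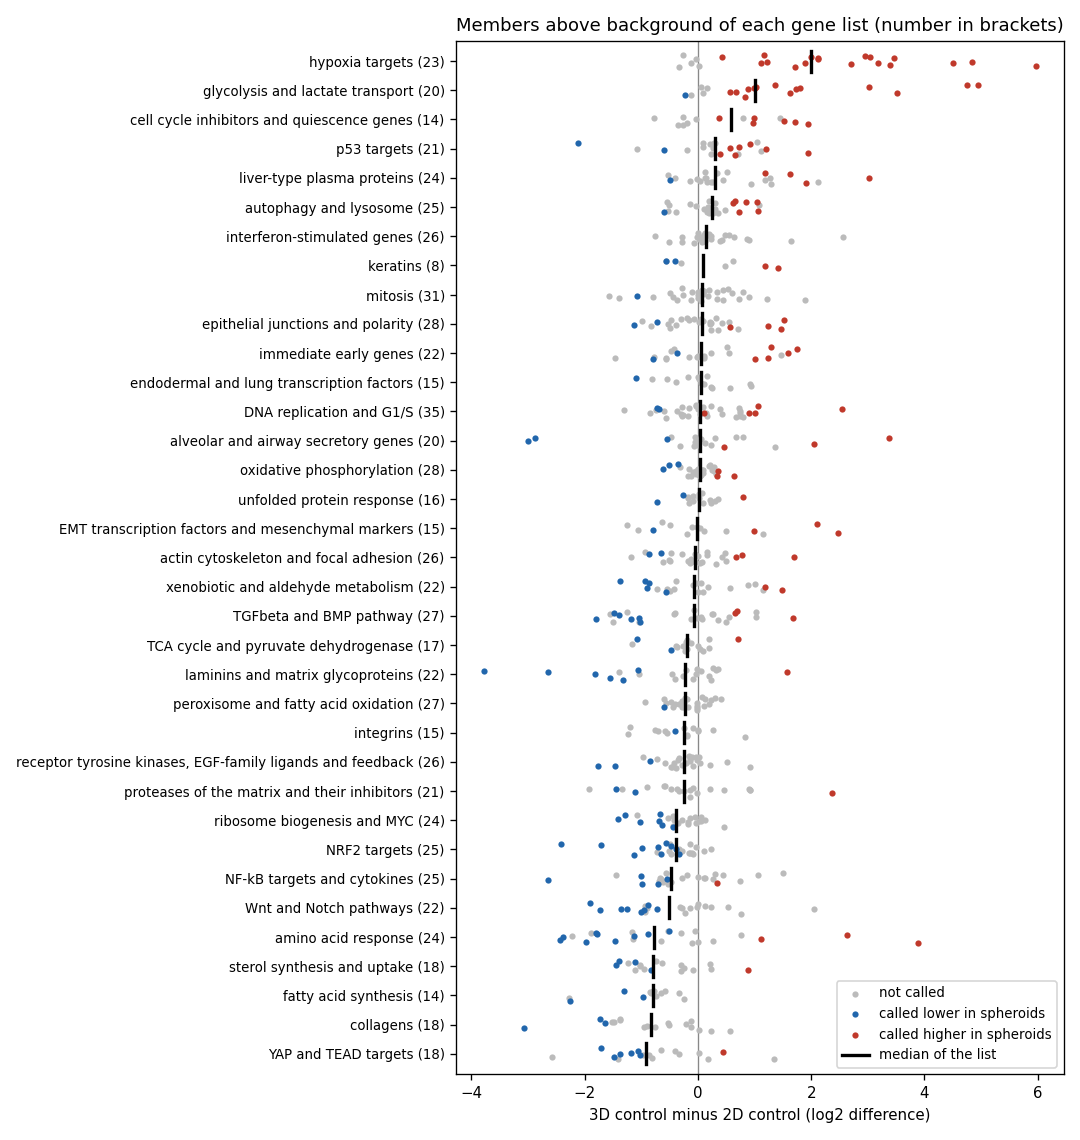
Each row is a gene list, with the number of members above background in brackets, and each point is 1 member's log2 difference, 3D control minus 2D control. Red and blue points are genes called higher and lower in spheroids, grey points were not called and black bars are medians. The medians run from −0.92 for targets of YAP and TEAD to 2.00 for hypoxia targets.

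Markers of cells that these cultures should not hold gave no calls on the probe sets that represent the genes. The other bright probe set of the fibroblast marker COL1A1 was called lower. Of 8 fibroblast, 6 endothelial, 7 leukocyte and 2 erythroid markers with a probe set none was called by limma, and 5, 4, 3 and 1 of them were near background. At an unadjusted p under 0.05, 1 leukocyte and 1 erythroid marker were higher and 1 leukocyte marker was lower. DCN and CDH5 sat at the floor of 2.23 on all 4 arrays, and PTPRC, the pan-leukocyte marker, at 2.29 and 2.23 in 2D and 2.23 on both 3D arrays. Other listed markers were above background. CD14, a co-receptor for bacterial lipopolysaccharide, measured 9.59 and 8.55 in 2D and 8.68 and 8.36 in 3D, the integrin gene ITGAM 6.61 and 6.43 against 5.69 and 4.91, and COL1A1, on an _x_at probe set, 7.52 and 7.68 against 7.80 and 7.17. LYZ, lysozyme, listed as a leukocyte marker but also made by airway epithelium, measured 6.22 and 4.17 in 2D and 8.51 and 8.64 in 3D and was not called (adjusted p = 0.101). Of 6 epithelial markers KRT19 was higher, KRT18 lower and the other 4 not called. None of 9 housekeeping genes was called by limma (3 higher and 1 lower at an unadjusted p under 0.05), and ACTB and GAPDH had differences of −0.33 and 0.29.

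The treated arrays gave a second look at the culture difference in arrays that the untreated comparison does not share, although both rest on 1 estimate of the spread. Of the 2110 genes called between untreated cultures, 1892 differed in the same direction between treated cultures. In that direction 1414 were called, while 64 were called in the opposite one. Of all 19775 genes, 1792 were called higher and 2875 lower between treated cultures. Over the 12825 genes above background, Pearson's r between both culture differences was 0.633, as a description across genes, which are not independent replicates. The hypoxia list kept its rise, with 16 of 23 members higher and 2 lower in treated spheroids and a median of 1.73. Glycolysis kept its rise as well, with 17 of 20 higher and 2 lower. The medians of some other lists did not repeat. That of the collagen list was −0.83 between untreated and 0.11 between treated cultures, and that of the sterol list −0.79 and 0.08. Other medians kept their sign, with −0.77 and −0.78 for the amino acid response, −0.39 and −1.09 for NRF2 targets and −0.92 and −0.48 for YAP targets.

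The difference between both culture differences was itself called for 645 of the 19775 genes (3.26%), and for 251 of the 2110. Among these 251 the values were highest for MMP1, IL11 and SNAI2, which TNF or TGFβ is known to induce. MMP1 measured 2.75 and 2.58 in treated monolayers and 14.09 and 13.36 in treated spheroids, so that its culture difference was larger by 8.70 on the log2 scale than without cytokines (SE 0.36, adjusted p = 0.00539). IL11, lower in untreated spheroids, measured 6.61 and 6.63 against 10.07 and 9.37 under treatment, a difference between differences of 5.75 (SE 0.38, adjusted p = 0.0132). SNAI2 measured 2.45 and 2.52 against 9.15 and 8.18 (4.07, adjusted p = 0.0453). For these 3 genes the treated spheroids stood apart from all other groups. CXCR4 rose further in treated spheroids (10.05 and 9.80, against 2.57 and 2.45 in treated monolayers, adjusted p = 0.0183), and CAPRIN2, an RNA-binding protein lower in untreated spheroids, was higher in treated ones (adjusted p = 0.0257). In the other direction FGA measured 6.41 and 6.27 in treated monolayers and 4.58 and 4.47 in treated spheroids, which turned its rise into a fall (−3.73, SE 0.22, adjusted p = 0.00989). The rise of LY96, the co-receptor of TLR4, from 3.70 and 3.28 to 6.90 and 6.85 without cytokines was smaller with them by 2.65 (adjusted p = 0.0434), and that of SMIM2-AS1 was absent at 3.31 and 3.30 in both treated cultures (adjusted p = 0.0287). PRR15 turned from higher to lower (adjusted p = 0.0135) and the fall of INHBB grew (adjusted p = 0.0439). The untreated culture differences of CXCR4, FGA, LY96 and SMIM2-AS1 stayed called without each array, and leaving out a single array ended between 1 and 6 of the 10 untreated calls named (adjusted p up to 0.177).

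**Figure D5:**
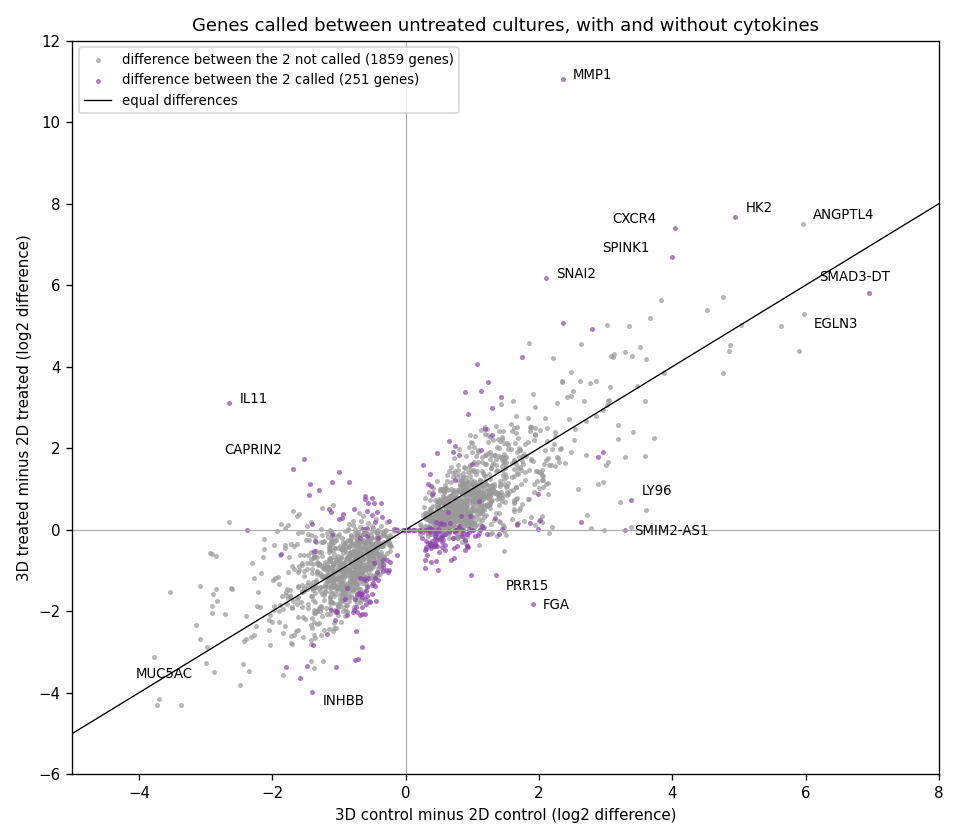
Each point is 1 of the 2110 genes called between untreated cultures, with the log2 difference 3D minus 2D without cytokines on the horizontal axis and with cytokines on the vertical axis, and the line marks equal differences. Purple points are the 251 genes whose culture difference itself differed with treatment, among which MMP1, IL11 and SNAI2 lie far above the line and FGA, PRR15 and INHBB below it.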

How the data were processed

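The authors made the deposited log2 values from U133 plus 2.0 scans with GCRMA (version not given in the sources used here), which subtracts background, normalizes arrays and summarizes probes. The submitters' processing notes also name limma 3.6.9. No genome build is named. GCRMA compresses dim probe sets to a floor, and 15259 of 54613 had 1 value on all arrays. Here limma 3.58.1 (R 4.3.3; lmFit, eBayes, 4 group means, all 8 arrays) tested every probe set except 62 controls, with Benjamini-Hochberg adjustment and a threshold of 0.05, 4 residual and 0.347 prior degrees of freedom. With 2 arrays a group, their number limits how precise any value is. Of the probe sets tested, 41091 name 1 gene, 1801 several and 11721 none in the platform annotation. Probe sets ending in _x_at (among named genes MUC5AC, VCAN, SLC2A3, LDHB, KRT18, KRT8, JUN, CXCL2, CXCL5, CXCL8, FN1, COL1A1) can bind related transcripts. Where a group was near background, the fold is a bound against its array medians. The fit was tested on simulated data. Plots were drawn with matplotlib 3.10.9.

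The comparison and its 41 gene lists (941 genes, 865 with a probe set) were chosen with earlier results of these data known. List medians cover members above background. Named genes are the 15 largest called rises and falls and fixed members of lists. Some fixed members that were not called, among them EGFR, CCND1, GDF15 and FOXA1, are left out of the text. Also named are at most 4 members called in every list with 1.5-fold differences or more. Among genes called here, the 5 whose difference changed most each way with treatment are named too. Others were named after their values were seen: AKR1B10, BAX, BNIP3L, CA12, CCND3, CXCL5, CXCL10, DLAT, DUSP4, EGLN1, EPHX1, ERO1A, GPI, IER2, ITGAM, JUNB, JUP, KRT80, LAMA5, LAMB1, LAMC1, LDHB, LYZ, MUC13, NSDHL, P4HA1, PFKFB3, PGK1, POLA1, SLC7A5, STC2, VLDLR and WSB1. Alternatives were a replicate block, each array left out, 4 arrays alone, other normalizations, filters, adjustment, test statistics and probe set rules. Chromatin data of the study were not analysed here.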

Additional observations from a re-analysis of the deposited data

Results flagged for a closer look

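For 31 of the named genes the culture difference of treated cells differed from that of untreated cells in limma's test of the difference itself. The values below are the treated difference, 3D minus 2D, minus the untreated one on the log2 scale. Of all genes tested, 3.26% were called in this way at an adjusted p under 0.05. Among the 2110 genes called between untreated cultures, from which most named genes come, 251 were.

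The culture difference lay higher with cytokines by 8.70 for MMP1, 2.55 for the protease gene PLAU and 4.07 for the EMT factor SNAI2. It lay higher by 5.75 for the cytokine IL11, 3.37 for the chemokine receptor CXCR4, 2.70 for SPINK1, 3.25 for CAPRIN2 and 2.42 for the Notch target HES1. Among immediate early genes the value was 2.38 for JUN and 1.04 for IER2. Genes of glucose use had 2.72 for HK2 and 2.49 for SLC2A1, and the sterol genes SQLE and STARD4 had 2.31 and 1.56. The remaining positive values were 1.27 for KRT15, 1.22 for KRT80, 1.20 for IDH2 and 0.84 for the YAP target AMOTL2.

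Negative values stood for differences that lay lower with cytokines. They were −3.73 for FGA, −3.28 for SMIM2-AS1, −2.65 for LY96, −2.58 for INHBB and −2.47 for PRR15. Replication genes had −1.29 for POLA1 and −1.16 for PCNA, and the NRF2 targets NQO1 and AKR1B10 had −1.31 and −0.61. The others were −1.23 for MUC13, −1.15 for SMAD3-DT, −0.63 for HSD17B4 and −0.48 for NDUFA9. PCNA, NQO1 and NDUFA9 were not called between untreated cultures. The causes of these differences were not tested.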

How the results depend on the processing

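The number of named calls depended on the processing. No named call reversed under any alternative, but most alternatives keep a gene's difference and so could not reverse it. The alternative probe set rule takes the probe set with the largest difference. Bright probe sets of opposite sign, as for ACACA, VIM, PLK3, TLN1 and COL12A1, were not tested as a separate alternative. Of the 173 named calls all were kept with an intensity trend, each array's median subtracted, removal of probe sets that are constant or mostly below the array median, or adjustment over 1 probe set a gene, whereas 117 were kept with ordinary t statistics, 87 with the replicate block and 20 with the 4 untreated arrays alone. The genes called between untreated cultures, 2110 here, numbered 869 at 2-fold or more, 4097 and 3969 with filters that ask 2 arrays to exceed 4 or their median, 3209 without constant probe sets, 1331 with ordinary t statistics and 254 with the untreated arrays alone, and ranged from 1022 to 1383 with 1 array left out. The genes whose culture difference changed with treatment, 645 here, numbered 380 at 2-fold or more, 2354 and 2114 with those filters, 1485 without constant probe sets, 1083 with adjustment over 1 probe set a gene, 310 with ordinary t statistics, and 557 to 2262 with 1 array left out, the highest without 3D treated replicate 1 and 1737 without 3D treated replicate 2. With array medians subtracted they numbered 1429, of which 420 were positive and 1009 negative, against 261 and 384. Fewer probe sets tested ease the adjustment, and the causes of the other shifts were not tested. Arrays with the same replicate number deviated together in the 2D control and 2D treated groups (correlation 0.283) but not in the other pairs of groups (−0.015 to 0.09), so the numbers were not taken as pairing, and with the replicate block 902 genes were called between untreated cultures and 226 for the change with treatment. Probe sets near the floor carry no order, and a lone array left by leaving out its partner is taken to be as variable as the other groups.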

Other observations

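The monolayer arrays of each group differed from each other over more than single genes. Of 26 interferon-stimulated genes above background, 24 were higher on 2D control replicate 1 than on replicate 2, by a median of 0.40 on the log2 scale, while 6940 of all 12825 genes above background were, by a median of 0.02. ISG15, a ubiquitin-like antiviral protein, measured 9.02 and 7.87, and IFIT1, which binds foreign RNA, 8.89 and 7.82. The 2D treated arrays showed the gap as well, with 25 of the 26 higher on replicate 1 by a median of 1.08, and ISG15 at 10.91 and 9.04. In 3D control 11 of the 26 were higher on replicate 1 and in 3D treated 13, and ISG15 measured 8.98 and 9.01 in 3D control. Among liver-type plasma proteins FGB, the fibrinogen beta chain, measured 7.46 and 5.87 on the 2D control arrays and 7.75 and 7.94 in 3D, and SERPINA1, the antitrypsin gene, 11.98 and 11.12 against 12.73 and 12.95. In 2D treated they measured 5.19 and 4.78 and 11.37 and 10.6, also lower on replicate 2. Neither was called, and each spheroid array was above both monolayer arrays. These are values on 2 arrays, and their source was not tested.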
